A study of Mus musculus with 2 samples.

Results

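The serpin family was examined on 2 one-colour microarrays of mouse liver cells. Its members were all genes that the array design names Serpin followed by a clade letter from a to i and a number, and every probe of each gene was read. This gave 59 of the 30153 genes on the array, with 75 of 39390 probes and 84 of 43020 spots. Clade A had 23 genes and clade B had 26. Clades E, F and I had 2 genes each, and clades C, D, G and H had 1 each. RefSeq still lists all 59 names as current. Another 3 spots carry the name of a serpin pseudogene and fall outside the rule.

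Serpins are proteins of one common fold, and most of them inhibit serine proteases by a suicide mechanism: the protease cuts an exposed loop of the serpin, the loop inserts into the body of the protein, and the enzyme stays trapped on it. Hepatocytes secrete most of the serpins found in blood plasma, which restrain coagulation, fibrinolysis, complement and the elastase of neutrophils. Clade B serpins lack a classical secretion signal and act mainly inside cells, and some members of the family have given up inhibition and carry hormones or assist the folding of collagen.

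The first array was hybridised with RNA of mature hepatocytes (MHs), purified from healthy livers of Sox9-EGFP mice by Percoll gradient centrifugation. The second was hybridised with RNA of Sox9+EpCAM- cells, which the study calls biphenotypic hepatocytes and which were sorted as GFP+ EpCAM- cells from the livers of mice of that strain given a diet with DDC, a collidine compound that injures bile ducts. The EGFP reporter marks cells that use the Sox9 gene, both samples are labelled male, and the sources used here do not state the age or number of mice for each array, nor clearly the feeding time. With 1 array per group, no difference below has an SD, an interval or a test, and diet, method of isolation and cell state cannot be told apart.

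Each spot gives a fluorescence intensity in arbitrary units, and log2 differences are Sox9+EpCAM- minus MH after each array was scaled to its own 75th percentile (741 for MH, 1110 for Sox9+EpCAM-). Equal intensities therefore give a negative difference. The dimmest spots that counted as well above background had 27.8 in MHs and 18.4 in Sox9+EpCAM- cells, and a serpin that was above background on 1 array only is given by a bound. Repeat spots of 1 probe had a median SD of 0.08 on the log2 scale on each array, which covers the slide and not the mice.

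The labels were checked against marker genes. Albumin was bright on both arrays, at 207000 in MHs and 170000 in Sox9+EpCAM- cells. Sox9 itself was not above background in MHs (8.87) and reached 60.7 in Sox9+EpCAM- cells, whereas Epcam, which the sort selected against, was 139 in MHs and 2770 in Sox9+EpCAM- cells. Xist, the RNA of the inactive X chromosome, was 1940 in MHs and 16.1, below background, in Sox9+EpCAM- cells, while 4 Y-linked genes (Ddx3y, Eif2s3y, Kdm5d and Uty) were above background on the Sox9+EpCAM- array alone. The MH array thus goes against its label of male, and sex cannot be told apart from the comparison in any serpin value below.

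By the brightest probe of each gene, 43 of the 59 serpins were well above background on at least 1 array. Of these, 31 were measured on both arrays and 12 on the Sox9+EpCAM- array only, and 0 were above background on the MH array only. The whole array leaned the same way, with 3613 genes above background on the Sox9+EpCAM- array only and 572 on the MH array only. The remaining 16 were not well above background on either array by that probe, and 15 of them belong to clade B. One of these, Serpinb6c, had a dimmer probe that was above background in Sox9+EpCAM- cells (5.92 in MHs and 19.4 in Sox9+EpCAM- cells), so 15 serpins had no probe above background. At a difference of at least 4-fold, bounds included, 4 of the 43 were higher in Sox9+EpCAM- cells (9.30%) and 4 were lower (9.30%). Among all 23417 genes above background on at least 1 array, 5.59% were higher and 5.57% were lower by the same rule, and with only 4 serpins on each side the shares do not set the family apart. Scaling to Gapdh instead gave 5 serpins higher and 3 lower, and 1650 genes higher and 1006 lower in place of 1309 and 1304.

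Of the 4 higher serpins, Serpinb6b, Serpina7 and Serpinb3c are described here, and the 4 lower ones were Serpinb1c, Serpinb1a, Serpina6 and Serpina3g. Among the 31 serpins measured on both arrays, 8 had a positive and 23 a negative difference, and the median was -1.12. The median of all 19232 genes measured on both arrays was -0.19, and 21 of the 31 serpins lay below it. Of those 19232 genes, 7714 had a positive and 11518 a negative difference. The 12 serpins measured on the Sox9+EpCAM- array alone do not enter these medians. In the plot of intensities by gene, the bright hepatocyte serpins are close pairs, and the long lines belong to these genes and to members that were dark in MHs.

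**Figure D1:**
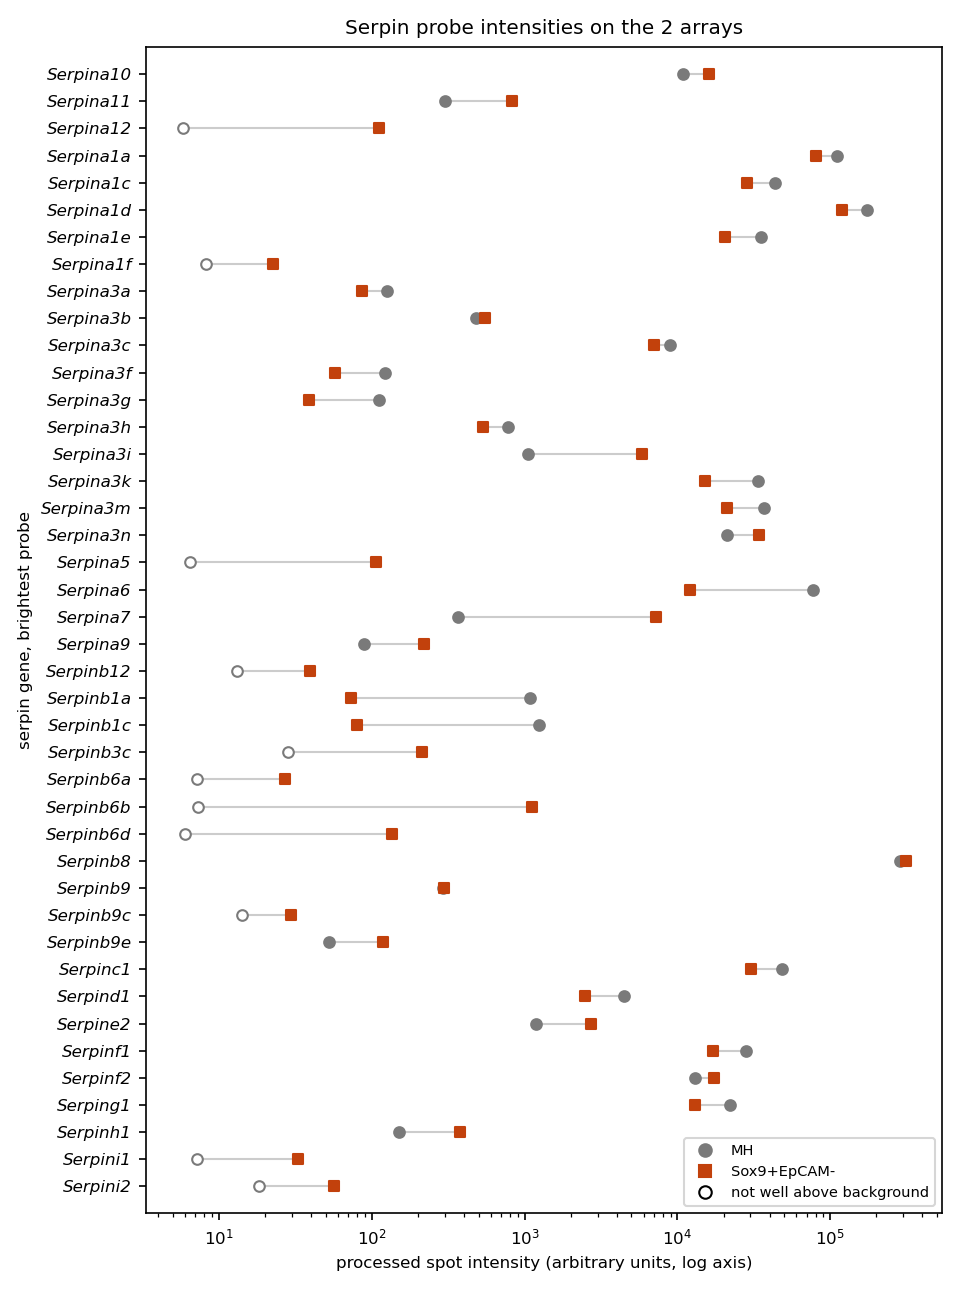
Processed spot intensity (arbitrary units, log axis) of 42 serpins above background on at least 1 array, by the brightest probe of each gene, on the MH array (grey circles) and the Sox9+EpCAM- array (red squares). Open circles were not well above background, and 11 serpins have an open circle in MHs.

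Serpinb6b, an intracellular relative of the cathepsin G inhibitor PI-6, was at 7.34 in MHs, not well above background, and at 1110 in Sox9+EpCAM- cells, which is at least 26.7-fold higher (log2 at least 4.74). Its probe lies at chr13:33070776-33070835 of mm9, the build of the array design. Serpinb3c, of the group related to human squamous cell carcinoma antigens, is the only serpin whose probe was printed repeatedly. That probe matches the probe of Serpinb3a in 43 of 48 aligned bases (89.6%). Whether it also binds RNA of Serpinb3a was not tested. Over 9 spots Serpinb3c ranged from 21.5 to 33.7 in MHs, with 1 spot above background. In Sox9+EpCAM- cells it ranged from 177 to 232, with all 9 above background. These ranges are of unscaled intensities and show the spread within 1 slide per group, not between mice. After scaling, the difference of the means was at least 5.03-fold (log2 at least 2.33).

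Serpina7 encodes thyroxine-binding globulin, a carrier of thyroid hormone in plasma that does not inhibit proteases. It was above background on both arrays, at 367 in MHs and 7240 in Sox9+EpCAM- cells, which is 13.2-fold higher (log2 3.72). It is the only clade A member that is not on chromosome 12, and its probe covers 2 stretches between positions 135615848 and 135616502 of the X chromosome (mm9), so it reads spliced RNA. The middle 30 bases of the 3 probes are shown, 5′ to 3′, because each of these differences rests on 1 sequence:
Serpinb6b: cagcaatactgggatctcaattttttggtt
Serpina7: tgggttgaattgtttgttccaaagttttct
Serpinb3c: cttctaatctagcatgtatctgtgccctgt

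Serpina6, the counterpart of Serpina7 for steroids, encodes corticosteroid-binding globulin, which carries glucocorticoids. Its brightest probe gave 76600 in MHs and 12000 in Sox9+EpCAM- cells, so it was 9.56-fold higher in MHs (log2 -3.26). A second probe gave 16300 and 636, a log2 difference of -5.26. Both probes put the gene lower in Sox9+EpCAM- cells, but they differ from each other by 2.01 on the log2 scale, the widest range among the serpins with several probes. They lie at chr12:104886817-104886876 (brighter) and chr12:104884880-104884939 (dimmer) of mm9, and neither has 20 bases in common with other genes' probes. Which exons they cover was not determined, since no annotation of mm9 was used here. Their middle 30 bases are given because the size of the difference depends on which is read:
Serpina6, brighter probe: tgggcattaaggatttgttcaccaaccaat
Serpina6, dimmer probe: ggccttgttgctactctcaaaacaaatcaa

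The differences of the pair of hormone carriers thus had opposite signs, positive for thyroxine-binding globulin and negative for corticosteroid-binding globulin.

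Serpinb1a and Serpinb1c had nearly the same difference. Serpinb1a, the inhibitor of neutrophil elastase, was 1090 in MHs and 73.4 in Sox9+EpCAM- cells, 22.2-fold higher in MHs (log2 -4.48). Serpinb1c was 1240 and 80.0, 23.2-fold higher in MHs (log2 -4.54). The third copy, Serpinb1b, was not well above background on either array. The probe of Serpinb1a lies at chr13:32934693-32934752 and that of Serpinb1c within chr13:32975867-32976102 (mm9). The probes have no run of 20 bases in common. Their middle 30 bases are shown because the 2 neighbouring copies gave nearly the same value:
Serpinb1a: cacaatcccacatctaatgtgctcttcctt
Serpinb1c: agtcacaaaaacagtgaagatgatgtatct

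Serpina3g, an intracellular inhibitor of lysosomal cysteine cathepsins, was dim on both arrays, at 111 in MHs and 39.0 in Sox9+EpCAM- cells (log2 -2.09, 4.26-fold higher in MHs). Its probe, at chr12:105480045-105480104 (mm9), has the middle sequence aactacgtaggactggtggacacctctgca. This value lies just past the 4-fold line. Just inside the line on the other side was Serpina3i, at 1050 in MHs and 5830 in Sox9+EpCAM- cells, 3.71-fold higher (log2 1.89, and 2.16 with scaling to Gapdh). A second probe of Serpina3i was not well above background on either array (8.15 and 18.4), and the median of its probes gave 1.24. The plot of differences by gene shows how far the called members lie from the bulk of the family.

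**Figure D2:**
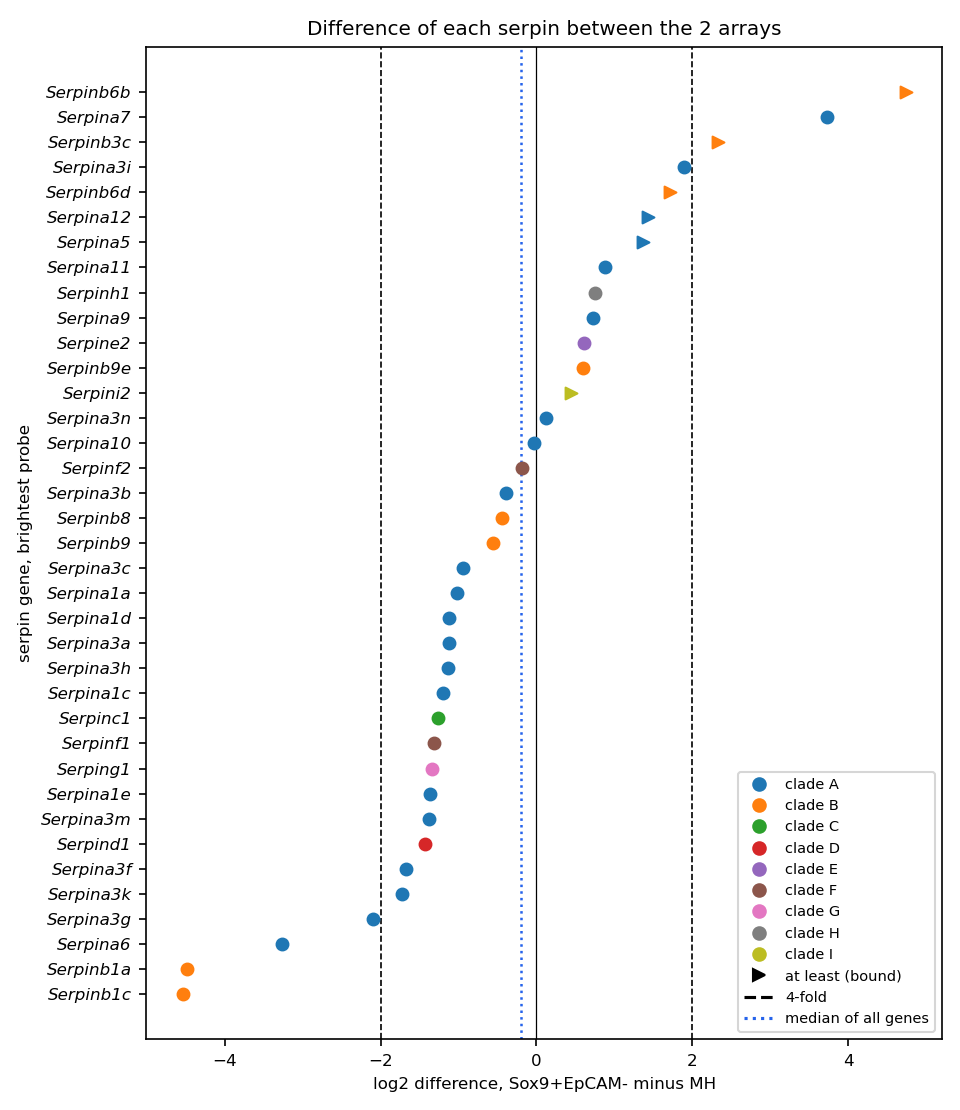
Log2 difference, Sox9+EpCAM- minus MH, of 37 serpins that have a difference or a bound, coloured by clade; arrowheads are lower bounds. Dashed lines mark 4-fold and the blue dotted line the median of all genes (-0.19). A dense group of serpins lies between -0.94 and -1.72, with 3 genes beyond the upper and 4 beyond the lower dashed line.

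Clade A holds the serpins that hepatocytes secrete in bulk. Of its 23 genes, 22 were above background on at least 1 array and 19 on both. Of those 19, 5 had a positive and 14 a negative difference, with a median of -1.12. The exception in detection was Serpina3j, which was not well above background on either array.

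Serpina1 genes encode alpha-1-antitrypsin, the main plasma inhibitor of neutrophil elastase, for which the mouse has several copies. Serpina1a was 110000 in MHs and 81100 in Sox9+EpCAM- cells (log2 -1.02). Serpina1c was 43200 and 28300 (log2 -1.19). Serpina1d was 174000 and 120000 (log2 -1.12, and -0.51 after quantile normalization), and Serpina1e was 35300 and 20500 (log2 -1.37). All 4 were lower in Sox9+EpCAM- cells by close to the same amount, and their second probes, where there was one, gave -1.34 for Serpina1a, -1.13 for Serpina1d and -1.05 for Serpina1e. Serpina1f, a distant member of the group, was 8.16 in MHs and 22.4 in Sox9+EpCAM- cells, where only the second value was above background and no fold could be given.

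Some of these probes are not independent. The probe of Serpina1c, 1 probe of Serpina1a and 1 of Serpina1e hold the same 29 bases, and the probe of Serpina1c matches that of Serpina1a in 50 of 51 aligned bases (98.0%) and that of Serpina1e in 49 of 59 (83.1%). Each of these spots may bind RNA of several copies, and the intensities cannot be divided among them. The shared stretch, in capitals because all of it is common to the 3 probes, is:
Serpina1a, Serpina1c and Serpina1e: GTCATCCTTCCTTCTGAATTGGGTTCCTT

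The Serpina3 group, mouse relatives of human alpha-1-antichymotrypsin, had 11 genes on the array, of which 10 were measured on both arrays, 2 with a positive and 8 with a negative difference (median -1.13). Serpina3k, a kallikrein-binding protein of plasma, was 33400 in MHs and 15200 in Sox9+EpCAM- cells (log2 -1.72). Serpina3m was 36600 and 21000 (log2 -1.38). Serpina3n, an acute-phase protein that inhibits granzyme B, was 21000 in MHs and 34200 in Sox9+EpCAM- cells, a difference of 0.12 that ranged from -0.06 to 0.57 over the scalings tried and so has no settled sign. Serpina3c, Serpina3a, Serpina3h and Serpina3b were all lower, with differences from -1.14 to -0.39. A second probe of Serpina3a was not well above background on either array (5.57 and 11.2), and the median of its probes gave -0.35 in place of -1.12.

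Serpina3f is the member whose probes disagreed in sign. The probe that is brighter over both arrays gave a difference of -1.67 (122 in MHs and 57.3 in Sox9+EpCAM- cells), and the other gave 0.26. The first lies at chr12:105492556-105492615 of mm9, between the probes of Serpina3h (105491733 to 105491792) and Serpina3i (from 105504738), whereas the second lies at chr12:105458989-105459048, before the probe of Serpina3g. The other probe had 31.4 in MHs and 56.3 in Sox9+EpCAM- cells. Both carry the same name in the design, and without an mm9 annotation it was not determined which gene the first one lies in.

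The other clade A members showed no common direction. Serpina10, the protein Z-dependent inhibitor of coagulation factor X, was 10900 in MHs and 16000 in Sox9+EpCAM- cells, a difference of -0.03 that ranged from -0.20 to 0.36 over the scalings. Serpina11 (0.88) and Serpina9 (0.73), the second of which is known from germinal centre B cells, were higher. Serpina12 (vaspin, an adipose serpin) was 5.78 in MHs and 112 in Sox9+EpCAM- cells, at least 1.43 higher on the log2 scale, and 0.51 with normexp background correction. Serpina5, the protein C inhibitor, was 6.48 and 107, at least 1.36 higher, and 0.41 with normexp. Both were above background on the Sox9+EpCAM- array alone.

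Of the 16 serpins with several probes, 9 had 2 probes above background on both arrays. In 7 of these 9 the probes differed by less than 0.5 on the log2 scale, and the exceptions were Serpina6 and Serpina3f. Apart from the repeated spots of Serpinb3c, such pairs are the only check of a serpin's difference within these arrays.

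**Figure D3:**
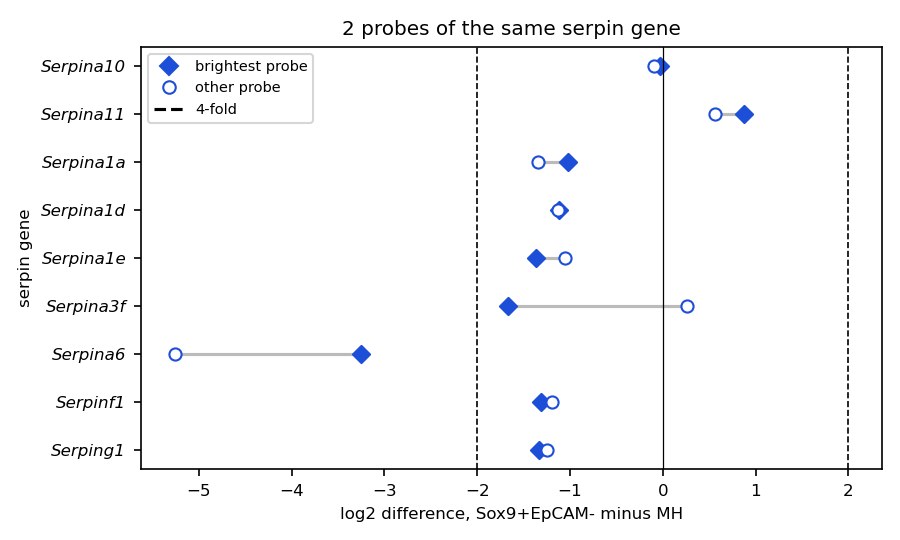
Log2 difference, Sox9+EpCAM- minus MH, by each of the 2 probes of the 9 serpins with 2 probes above background on both arrays (filled, the brightest probe; open, the other; dashed lines, 4-fold). The probes of 7 genes lie within 0.5 of each other, those of Serpina3f lie on both sides of 0 and those of Serpina6 are 2.01 apart.

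The secreted serpins of the remaining clades, which guard coagulation, fibrinolysis and complement, were lower or near 0. Serpinc1 (antithrombin, the heparin-dependent inhibitor of thrombin) was 48500 in MHs and 30300 in Sox9+EpCAM- cells (log2 -1.26). Serpind1 (heparin cofactor II, also an inhibitor of thrombin) was 4480 and 2490 (log2 -1.43). Serping1 (C1 inhibitor, which restrains complement and plasma kallikrein) was 21900 and 13000 (log2 -1.34, and -1.25 by its second probe). These 3 plasma inhibitors lay within the range of the Serpina1 and Serpina3 genes.

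The 2 clade F genes differed from each other. Serpinf1 (pigment epithelium-derived factor, a secreted protein without inhibitory activity that restrains vessel growth) was 28200 in MHs and 17000 in Sox9+EpCAM- cells (log2 -1.31, and -1.19 by its second probe). Serpinf2 (alpha-2-antiplasmin, the inhibitor of plasmin) was 13100 and 17300, a difference of -0.18 that ranged from -0.35 to 0.22 over the scalings.

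Serpine2, protease nexin 1, an inhibitor of thrombin and urokinase that is bound to cell surfaces, was 1190 in MHs and 2710 in Sox9+EpCAM- cells, a difference of 0.60. It lay apart from the plasma inhibitors, which had negative differences. Serpinh1, or HSP47, is a chaperone of collagen in the endoplasmic reticulum and is known from cells that make collagen. It was 150 in MHs and 377 in Sox9+EpCAM- cells, a difference of 0.75. In clade I, Serpini1 (neuroserpin) was 7.17 in MHs and 33.0 in Sox9+EpCAM- cells, with no fold above its bound. Serpini2, known from the pancreas, was 18.4 and 56.6, at least 0.44 higher on the log2 scale. Both clade I genes were not well above background in MHs.

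Clade B was mostly dark. Of its 26 genes, 11 were above background on at least 1 array and 5 on both. By position, 8 of 11 genes on chromosome 1 and 6 of 15 on chromosome 13 had no probe well above background on either array. The brightest probes of the 16 serpins that were dark by that probe, Serpina3j and Serpinb6c included, had intensities from 5.73 to 32.3 on the MH array and from 3.67 to 21.3 on the Sox9+EpCAM- array. Beside the clade B genes already named, Serpinb9 (inhibitor of granzyme B) was 293 in MHs and 298 in Sox9+EpCAM- cells (log2 -0.56), Serpinb9e was 52.3 and 118 (log2 0.59), and Serpinb6d was 5.99 and 136 (at least 1.71, and 0.66 with normexp background correction). Serpinb12, Serpinb6a and Serpinb9c were above background on the Sox9+EpCAM- array only, at 39.3, 27.2 and 29.5, with no fold above the bound.

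Serpinb8, an intracellular serpin known to inhibit furin, gave 284000 in MHs and 312000 in Sox9+EpCAM- cells, a difference of -0.45 that ranged from -0.62 to 0.05 over the scalings. Its probe, at chr1:109504865-109504924 (mm9), is made largely of alternating T and G: 38 of its 59 steps between neighbouring bases are TG or GT, and 11 of the 39390 probes of the array have as many or more. A run of 21 of its bases recurs in probes of Synpo2l and 9530083O12Rik, and another in a probe of AW555464. Which RNAs the spot binds cannot be told from its signal, and it is not read as a level of Serpinb8. In the stretch richest in this repeat, capitals mark the alternating bases:
Serpinb8: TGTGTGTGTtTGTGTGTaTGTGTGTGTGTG
The median of the 5 clade B genes measured on both arrays was -0.56 and became -2.52 when probes with 20 bases in common with other genes' probes were left out, which removes Serpinb8. In all, 12 of 75 serpin probes have such a run, against 7.16% of probes on the array, and most of the pairs are neighbouring copies such as Serpinb6a with Serpinb6c and Serpinb9f with Serpinb9g.

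The serpins were set beside other genes of the same system. Of 40 genes of proteases that serpins are known to inhibit or of their close relatives, 35 were above background on at least 1 array, and 29 on both. Of the 29, 2 had a positive and 27 a negative difference (median -0.88). With scaling to Gapdh these counts were 5 and 24 (median -0.62), and the median of all genes was 0.07. Only Plat, tissue plasminogen activator, was at least 4-fold higher, at 7.49 in MHs and 6100 in Sox9+EpCAM- cells (log2 at least 7.19). The 2 lower genes were Klk1, a tissue kallikrein (214 and 54.2, log2 -2.56), and Hgf, hepatocyte growth factor, which resembles plasminogen but is no protease (83.8 and 28.7, log2 -2.13). The coagulation factors of the list had differences from -1.74 for F11 to -0.09 for F12.

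The enzymes of plasminogen activation were thus unevenly represented. Plat was dark in MHs and bright in Sox9+EpCAM- cells, whereas Plau, urokinase, was not well above background on either array. Plasminogen itself, Plg, was 60800 in MHs and 50200 in Sox9+EpCAM- cells (log2 -0.86). The urokinase receptor gene Plaur was 5.86 and 29.4, above background on the Sox9+EpCAM- array only. Vtn, the adhesion protein vitronectin, was 38640 and 34090 (log2 -0.76).

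Of 17 cofactors and clearance receptors, 14 were measured on both arrays, 4 with a positive and 10 with a negative difference (median -0.33), and 7 and 7 after quantile normalization (median -0.09). F3, tissue factor, which starts coagulation, was 296 in MHs and 7600 in Sox9+EpCAM- cells (log2 4.10). Vldlr, a receptor that takes up serpin-protease complexes, was 591 and 88.5 (log2 -3.32). Lrp1, the main hepatic receptor of such complexes, was 3050 and 5940 (log2 0.38).

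Other products of hepatocytes were read beside the secreted serpins. Of 24 secreted hepatocyte proteins other than serpins, 2 had a positive and 22 a negative difference, with a median of -0.79 (-0.27 after quantile normalization). For 15 hepatocyte enzymes measured on both arrays, among them Cyp3a11 (85800 in MHs and 337 in Sox9+EpCAM- cells, log2 -8.58) and Cps1 (82800 and 37500, log2 -1.73), the median was -2.07 (-1.60 after quantile normalization). The median of clade A, -1.12, lay between these, as it did after quantile normalization (-0.59), and that of the 7 genes measured on both arrays in clades C to H was -1.26. In such bulk samples, fewer cells of a type and less RNA per cell cannot be told apart.

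**Figure D4:**
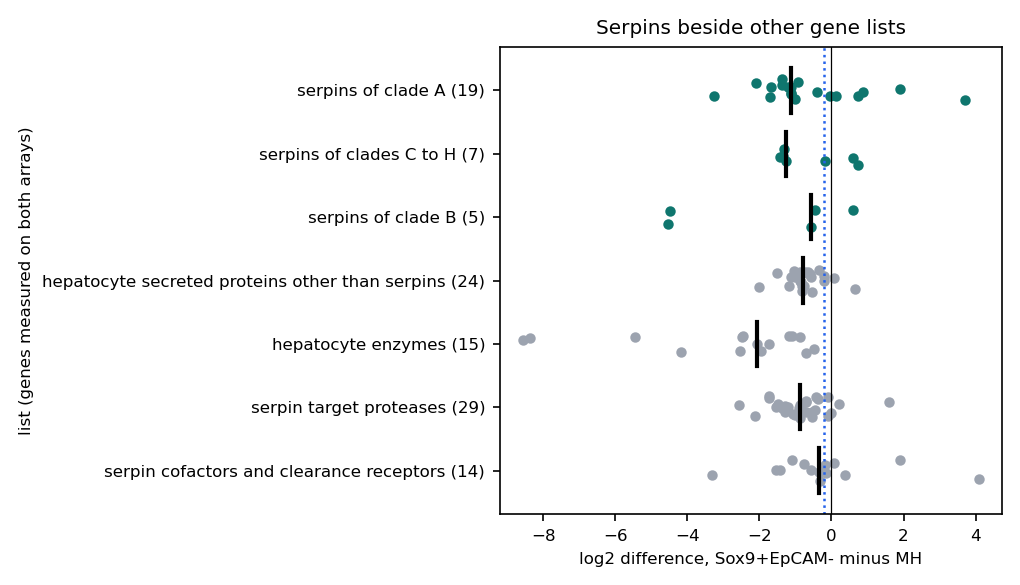
Log2 difference, Sox9+EpCAM- minus MH, of each gene measured on both arrays (points, with the number of genes in brackets) for serpins by clade (green) and 4 other lists (grey); black bars are medians and the blue dotted line is the median of all genes (-0.19). Points of the hepatocyte enzymes reach -8.58, while no serpin lies below -4.54.

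Markers of other liver cells also differed between the arrays. Of 14 fibroblast and stellate cell markers, 9 were above background in MHs and 12 in Sox9+EpCAM- cells, 6 were at least 4-fold higher and 1 (Lrat) was lower, and their summed intensity, in multiples of each array's 75th percentile, was 12.9 in MHs and 55.5 in Sox9+EpCAM- cells, or 2.02 and 42.03 without Dcn. Col3a1 was 175 and 22300 (log2 6.41), while Pdgfrb was not well above background on either array. Serpine2 and Serpinh1 were higher on the same array, and the part of such cells in their values was not tested. Of 12 cholangiocyte markers, 3 were at least 4-fold higher and 0 lower (Spp1 was 258 and 47000, log2 6.93), and the sum on the same scale was 7.68 in MHs and 53.1 in Sox9+EpCAM- cells, or 7.33 and 10.72 without Spp1.

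Most but not all markers of macrophages and neutrophils lay the other way, as Serpinb1a and Serpinb1c did. Of 13 measured on both arrays, 2 had a positive and 11 a negative difference. Of 15 such markers on the array, 13 were above background on each array, 1 was at least 4-fold higher (Cd68) and 6 were lower, and their scaled sum was 178 in MHs and 94.3 in Sox9+EpCAM- cells, or 54.1 and 18.02 without the bright Itgam probe. Clec4f, a marker of Kupffer cells, was 6780 and 118 (log2 -6.43). The neutrophil genes had no common direction: S100a8 and S100a9 were not well above background on either array. Mpo was 74.1 and 121 (log2 0.12), and Ly6g was 8330 and 2220 (log2 -2.49). Endothelial markers were also lower, with 5 of 12 at least 4-fold lower and a scaled sum of 9.74 in MHs and 3.45 in Sox9+EpCAM- cells. Of 12 lymphocyte markers, 1 was at least 4-fold higher (Ncr1) and 0 lower, with scaled sums of 3.11 and 3.14. Of 8 platelet markers none passed 4-fold, with scaled sums of 3.35 and 2.61. Of 6 mesothelial markers Krt8, which hepatocytes also express, was higher and Wt1 lower. Their scaled sums were 17.5 and 74.9, and 0.732 and 0.0381 without Krt8. The part of any of these cells in the serpin values was not tested.

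The 7 serpins described as beyond 4-fold kept their direction in all 9 ways of processing that were compared in the plot of called serpins, but 2 of them lay under 4-fold in some. With normexp background correction, which pulls dim spots together, Serpina3g had a difference of -1.23 and Serpinb3c of 0.95, and with scaling to Gapdh Serpina3g had -1.83. With normexp Serpinb6b had 3.08, Serpinb1a -3.41 and Serpinb1c -3.69, still past 4-fold.

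**Figure D5:**
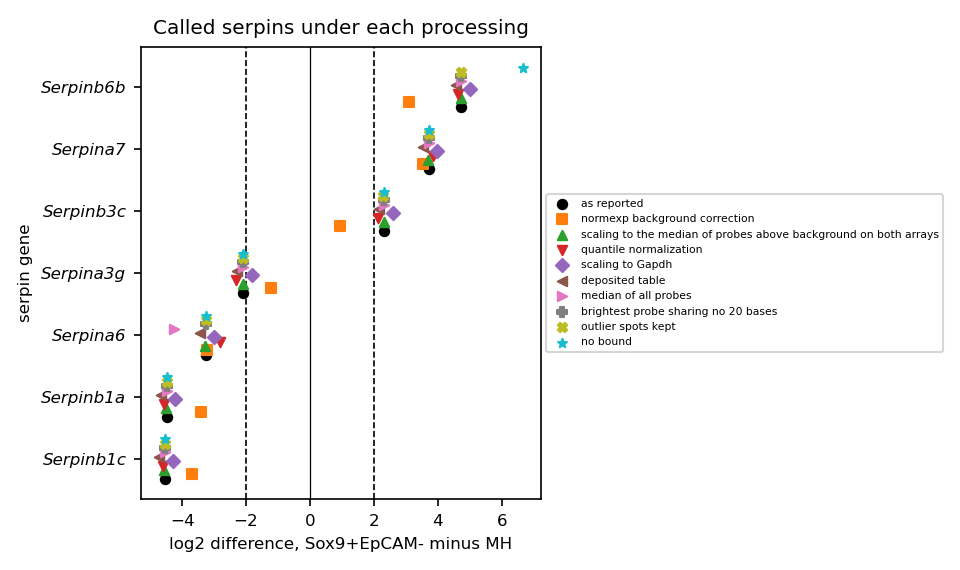
Log2 difference, Sox9+EpCAM- minus MH, of 7 serpins at least 4-fold different, as reported and under each alternative (symbols); dashed lines mark 4-fold. All symbols of a gene lie on 1 side of 0, and the normexp squares of Serpinb3c (0.95) and Serpina3g (-1.23) lie inside the dashed lines.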

How the data were processed

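RNA of 1 MH sample and 1 Sox9+EpCAM- sample was labelled in a single colour (Cy3) and put on 1 Agilent array each. The authors deposited the processed spot intensity of Feature Extraction 10.7.3.1 (background subtracted, not normalized between arrays) and a table of ratio values, which were found to be that intensity divided by the array's median. Here control spots were dropped, as were spots with an outlier mark on any array (42744 kept), intensities were scaled to the 75th percentile and taken to log2, and spots of a probe were averaged. The probe with the highest mean stood for a gene.

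A probe not well above background on 1 array was set against the higher of its own signal there and the lowest signal well above background, giving a bound. A bound of 1-fold or less gave no fold. The rule of size was 4-fold, and no test was possible. Every member was accounted for, and those given in full were members beyond 4-fold, the 10 with the highest mean signal and those with probes over 4-fold apart. Target proteases and cofactors were named where at least 4-fold different. Other genes in the text were chosen with their values in view. The members and all lists were chosen with earlier results of these data known.

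Probe sequences and mm9 coordinates are those of the array design. A member is not reported here by name and enters the counts and medians only. Changes over 1.5-fold between settings counted as moved. Intensities were processed with Python 3.11.15, pandas 2.3.3 and numpy 2.4.6, and normexp used limma 3.58.1 in R 4.3.3 with an offset of 50. The procedure was tested on simulated data. All deposited columns of sample values could be assigned.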

Additional observations from a re-analysis of the deposited data

How the results depend on the processing

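The count of 4 serpins at least 4-fold higher became 7 without the bound, 1 among genes above background on both arrays and 8 at 2-fold. The count of 4 lower became 17 at 2-fold and 2 at 10-fold. The clade B median of -0.56 became -2.52 with probes sharing no 20 bases with another gene, since Serpinb8 was then left out. The family median of -1.12 ranged from -1.30 to -0.68 and that of clade A from -1.30 to -0.59 over the settings, and no value reversed among serpins beyond 4-fold. Under the scalings Serpina10, Serpina3n, Serpinb8 and Serpinf2 crossed 0. Of the serpins with a difference, normexp moved 10 of 37, no bound 5 of 38 and the median of all probes 4 of 38 (Serpina6 to -4.26). Quantile normalization moved 1 of 38 (Serpina1d to -0.51). The median of all genes shifted by 0.27 with scaling to Gapdh and by -0.18 in the deposited table. The 8 serpins with a positive and 23 with a negative difference became 10 and 21, and 7 and 24. With quantile normalization these counts were 11 and 20. Genes at least 4-fold different numbered 1309 higher and 1304 lower, 612 and 660 with normexp. No paired analysis was possible because there is a single array in each group, and neither a fit with the slide as a block nor one without a replicate was run. Signal over background limits the dim serpins, and 15 had no probe above it.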
